A study of Mus musculus with 24 samples.

Results

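The regions described here are stretches of the mouse genome that were counted for 5-hydroxymethylcytosine (5hmC) in every one of the 5 comparison tables of the study. They were chosen from the table that sets het control mice against wild-type control mice. A region was taken if it lay on an autosome, outside the stretch of chromosome 6 from 30 to 60 Mb, was under 2500 bp wide, and overlapped by at least 1 bp a region in each of the 4 other tables. This gave 11332 shared regions of the 38107 in that table, or 31.1% of the 36478 that met the limits on position and width. The other 25146 eligible regions were missing from at least 1 table. The study profiled 5hmC and RNA in the striatum of 12 female C57BL/6 mice, with 3 mice in each of 4 groups. The het stressed group was heterozygous for Cntnap2 and prenatally stressed, and the wild-type stressed group was wild type and also prenatally stressed. The het control and wild-type control groups were heterozygous and wild type and came from mothers that were not stressed. Prenatal stress was 7 days of varied stressors to the pregnant mother from embryonic day 12.5, and the mothers carried embryos of both genotypes. All mice were ear-tagged at postnatal day 12 and weaned at day 18, when they were housed in groups with littermates of the same sex. The sources used here give neither their age at sampling nor the litter of each mouse, so mice of a group may be littermates. Each mouse gave 1 library of DNA enriched for 5hmC and 1 RNA library from the same punch of tissue.

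5hmC is made when TET enzymes oxidise 5-methylcytosine, the usual methyl mark of mammalian DNA. It is abundant in neurons, where it lies over the bodies of active genes and at enhancers and is low at the start sites of active genes. Cntnap2 encodes Caspr2, a neuronal adhesion protein of the neurexin family that helps to cluster potassium channels along axons. The striatum is the input nucleus of the basal ganglia, and most of its neurons are spiny projection neurons that use GABA.

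The RNA libraries carried the markers of the labelled tissue. Ppp1r1b, which encodes the spiny neuron phosphoprotein DARPP-32, was at 1109 to 2759 TPM. The 9 spiny neuron markers summed to 3795 TPM in het control replicate 1 and to 5172 to 8372 TPM in the other libraries. Of the liver genes, Alb was at 0 to 0.07, Apoa2 at 0.93 to 5.58 and Serpina1a at 0 to 0.09 TPM. The choroid plexus gene Ttr varied widely, at 0.90 to 826 TPM. Cntnap2 RNA was at 36.0 to 59.5 TPM in the 6 het libraries and 39.7 to 68.3 TPM in the 6 wild-type libraries, so it does not separate the genotypes. Wild-type stressed replicate 2 stands apart: Xist, the RNA of the inactive X of females, was at 1.32 TPM there and at 23.1 to 109 TPM in the other 11 libraries. Its 5hmC library had 2678 CPM on the X chromosome, the lowest of the 6 in its table, where the other 5 had 3052 to 3990. The RNA file of het control replicate 1 carries another animal number than its label and its 5hmC columns. Without the 5hmC library of wild-type stressed replicate 2, each of the comparisons below that uses it still had 0 shared regions called. The 5hmC libraries held 2045051 to 4331517 counts in the het control and wild-type control table and 1033060 to 1964209 in the het stressed and wild-type stressed table, and in each of the 5 tables the totals of the groups overlapped.

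The shared regions were set mainly by the table with the fewest regions. Of the 36478 eligible regions, 15967 overlapped a region of the het stressed and wild-type stressed table, against 26199 to 27049 for each of the 3 others, and 4123 were missing from that table alone. The bounds differ between tables: 172 shared regions had identical bounds in the het stressed and wild-type stressed table and 3284 in the wild-type stressed and wild-type control table. Overlaps were nonetheless large, with 10561 regions overlapping by at least 50% of both partners in all 4 tables and 3817 by at least 90%. Where 2 tables gave identical bounds, the counts of the libraries they have in common were equal in every case (5043, 9852 and 6843 counts compared, 0 unequal). In all, 217 shared regions had a partner in common with another shared region in at least 1 table, so their counts are partly the same reads.

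Wider regions were shared more often, which the rule itself favours, since a wider region more easily meets an overlap of 1 bp. Of regions under 1100 bp wide 18.03% were shared, of those from 1100 to under 1300 bp wide 34.6%, and of those at least 2000 bp wide 61.4%. The median width was 1259 bp for the shared regions and 1100 bp for the eligible regions that were not shared, and together the shared regions covered 15.8 Mb. The share differed less between chromosomes, from 26.8% on chromosome 7 to 35.0% on chromosome 16. The number per length differed more: chromosome 7 held 2.22 shared regions per Mb and chromosome 19 held 6.69. Shared regions lay closer to another eligible region (median 4.56 kb) than eligible regions that were not shared (7.19 kb). The closest pair, chr18:23706100-23707699 and chr18:23707701-23708999 (mm9, as are all positions here), was 1 bp apart and joined to a single region in 3 of the other tables.

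**Figure D1:**
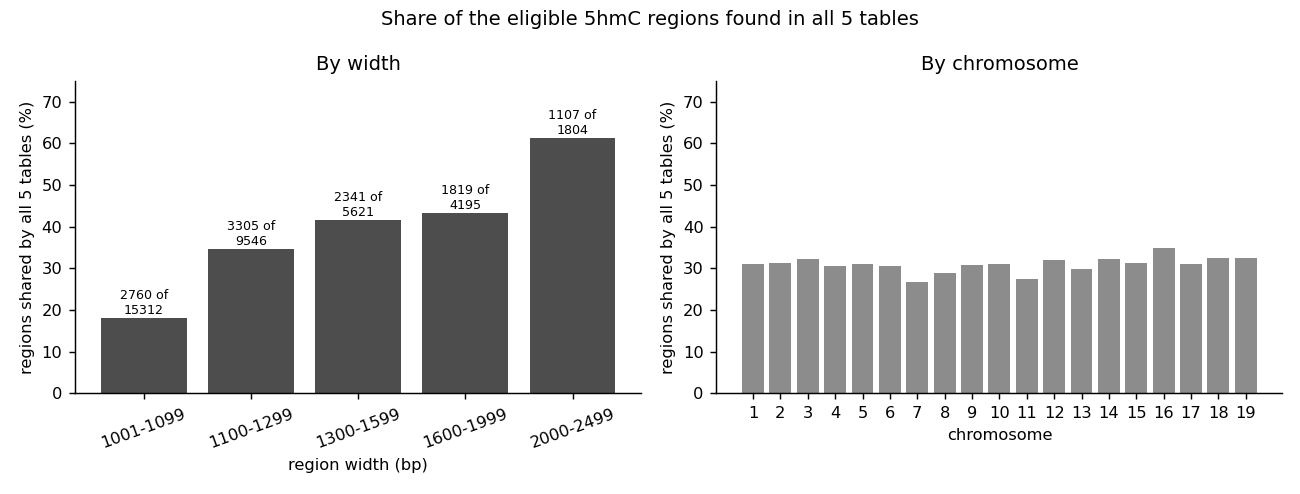
Percentage of the eligible regions of the het control and wild-type control table that were found in all 5 tables, by region width (left, with the counts above each bar) and by chromosome (right). The share climbs over the widths, with 18.03% of the narrowest regions and 61.4% of the widest, while chromosomes lie between 26.8% and 35.0%. A wider region more easily meets the overlap of 1 bp, so the rule itself favours this climb.

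Regions on either side of the width limit had similar densities. The shared regions just under 2500 bp, chr3:51347203-51349699, chr10:42879171-42881667 and chr8:93882400-93884894 (2497, 2497 and 2495 bp), had 17.7 to 32.7 CPM per kb, of all counts of the table, over the 6 control libraries. The 3 regions of 2500 bp that otherwise met the rule, chr1:40043500-40045999, chr1:30858700-30861199 and chr1:155156700-155159199, had 16.0 to 26.7. The shared region nearest below the excluded stretch of chromosome 6 was chr6:29773980-29775585 and the nearest above it chr6:60761151-60762199, with mean densities of 50.3 and 51.6 CPM per kb, of the counts in the shared regions.

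To compare all 12 libraries, the control libraries were read from the het control and wild-type control table and the stressed libraries from the het stressed and wild-type stressed table. Each count was divided by the width of the region in its own table and by the library's sum over the shared regions, which gives a density in CPM per kb, where CPM is the count scaled to a fixed library size. This scaling gives every library the same total over the shared regions, so the densities show how reads were spread among these regions and do not compare the amount of 5hmC between mice. The median density was 60.8, 61.6 and 61.0 in the het stressed libraries, 60.4, 61.3 and 61.2 in the wild-type stressed libraries, 59.6, 59.7 and 59.4 in the het control libraries, and 60.1, 59.9 and 59.5 in the wild-type control libraries. The stressed libraries were read from another table, whose regions were narrower (median partner width 1187 bp), so prenatal condition and table cannot be told apart in this measure. Of the 11332 regions, 11300 (99.7%) had a mean density within 2-fold of the median.

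**Figure D2:**
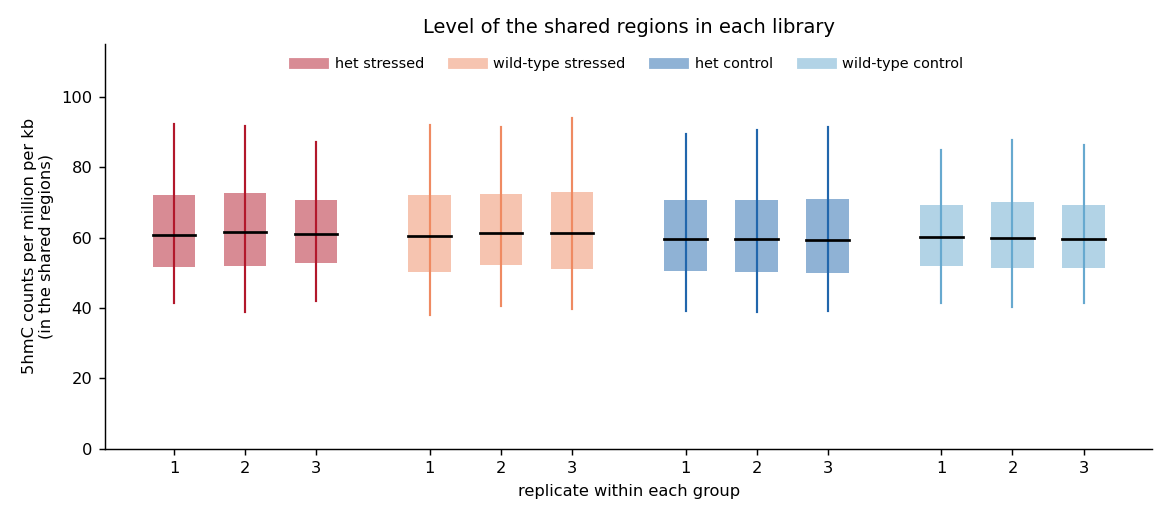
5hmC density of the 11332 shared regions in each of the 12 libraries, in CPM per kb, of the counts in the shared regions (boxes: 25th to 75th percentile, black lines: median, thin lines: 5th to 95th percentile). The medians, from 59.4 to 61.6, are held close to each other by the scaling to each library's sum over these regions, so the boxes show the spread over regions and not the amount of the mark.

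Most of the spread between libraries was of the size that counting gives. The coefficient of variation (CV, the SD over the mean) over the 12 libraries had a median of 15.2% per region, and counting error alone would give a median of 13.9% at a median count of 59.1 per region and library. In 3974 regions (35.1%) the CV was below that of counting, and in 97 (0.856%) it was over 2 times as large. The group means differed little: the highest of the 4 was a median of 1.22-fold above the lowest, over 1.5-fold in 502 regions and over 2-fold in 7. The highest mean belonged to het stressed mice in 3397 regions, wild-type stressed mice in 3232, het control mice in 2438 and wild-type control mice in 2265; here too, prenatal condition and table cannot be told apart. The steadiest region, chr6:144084017-144085835, had densities of 55.9, 60.1 and 58.03 in het stressed, 56.1, 55.6 and 51.6 in wild-type stressed, 56.8, 56.0 and 56.6 in het control, and 56.5, 52.3 and 54.04 in wild-type control mice, a CV of 4.13%. The next steadiest, chr19:57999100-58001000 and chr3:69928378-69929899, had CVs of 4.47% and 4.53%.

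A handful of regions carried far more 5hmC reads than the rest. The 11 regions above 5 times the median density together held 3.29% of the counts in shared regions. All 11 were also among the 97 whose CV was over 2 times that of counting. At such high counts the counting CV is small, so this does not by itself make them more variable than other regions. Their CVs ran from 12.4% to 51.3%, against a median of 15.2% over all shared regions. Of these 11, 4 began within the first 3.2 Mb of a chromosome, where only 24 of all shared regions lie. The densest was chr9:35112300-35113499, at 12581, 13885 and 16591 CPM per kb in het stressed mice, 17730, 11896 and 11638 in wild-type stressed mice, 12455, 10696 and 10853 in het control mice, and 13929, 11738 and 13435 in wild-type control mice. Wild-type stressed replicate 1 and het stressed replicate 3 were highest there, and within each of the 5 tables the groups overlapped. The same libraries were highest at chr12:3109436-3110637 (6401 and 5933) and chr9:3031500-3032999 (1503 and 1355), and the 2 regions averaged 4552 and 1064 over the 12 libraries. The third densest, chr6:103598595-103599649, averaged 2492, and the fifth, chr4:118219800-118221599, averaged 904 with a CV of 33.7%. The unit is counts, and the sources used here do not say how reads that match several places were handled, so the origin of reads in such dense regions is uncertain.

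At the low end, the 5 regions of lowest density averaged 31.6 to 34.3 CPM per kb: chr8:124348455-124349479, chr5:96573982-96575271, chr3:42595210-42596228, chr13:17807862-17808950 and chr12:60071839-60072868. They had 12 to 48 counts per library, so none was empty in any mouse. The most variable region, chr17:3081100-3082389, had a CV of 57.1% and was highest in het control replicate 2 (261) and wild-type control replicate 2 (150), against 45.2 to 108 elsewhere. Het control replicate 2 was also highest at chr17:39983700-39985283 (323, CV 44.0%) and at chr4:118219800-118221599 (1567). The CV of 51.3% at chr9:3037500-3038699 goes with the join: this region is 1200 bp wide in the control table, where the mean densities were 328 in het and 330 in wild-type mice, and is part of a 4500 bp region in the stressed table, where they were 895 and 869. Within each table the genotypes overlapped.

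The shared regions took a steady part of each library. They held 40.1 ± 1.001% of the counts of het stressed and 40.2 ± 1.61% of wild-type stressed libraries in the table of stressed mice, and 28.6 ± 0.241% of het control and 28.7 ± 0.306% of wild-type control libraries in the table of controls (SD, n = 3 each). In none of the 5 tables did the share differ between groups by more than the spread (differences of -0.11 to 0.12 percentage points; two-sided exact permutation p = 0.8 to 1.0, adjusted p = 1.0 over 5 tests). With 3 against 3 libraries this test cannot go below 0.1. Over the 6 control libraries the median density was 17.1 ± 0.168 CPM per kb, of all counts of the table, in shared regions and 16.3 ± 0.396 in the others (SD, n = 6). The difference of 0.795 ± 0.515, from 0.0523 in het control replicate 2 to 1.58 in wild-type control replicate 1, was positive in 6 of 6 libraries. It is a description with no test, since the tables that define the shared regions hold these libraries, and the widths were not matched (medians of 1259 bp and 1100 bp).

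No shared region passed the test for genotype, in either prenatal condition or averaged over both. The shared regions were chosen through tables that hold these libraries, and the choice may disfavour regions that differ between groups. The lack of calls is therefore not independent of that choice. Differences beyond 1.5-fold were seen in 0.203% of shared regions in controls, against 0.562% of all. In stressed mice they were seen in 0.362%, against 1.08%. In control mice (het against wild type) edgeR's quasi-likelihood test called 0 of the 11332 at an adjusted p under 0.05, against 0.00262% of all 38107 regions tested. At an unadjusted p under 0.05 there were 566 shared regions (4.99%, against 7.51% of all regions), and DESeq2 called 0, with 131 at its unadjusted p under 0.05. In stressed mice edgeR also called 0 (0.0% of all 24982 regions), with 599 at an unadjusted p under 0.05 (5.29%, against 7.41%), and DESeq2 called 0, with 118. For the genotype average, fitted over all 12 libraries on 17071 joined regions, edgeR called 0 (0.0% of all), with 366 at an unadjusted p under 0.05 (3.23%, against 4.6%), and DESeq2 called 0, with 77. In bulk tissue, fewer cells that carry the mark and less of it per cell cannot be told apart.

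Each library was scaled on its own counted regions, so a change of 5hmC common to all regions would not show in these fits. Differences of opposite sign in the 2 prenatal conditions cancel in an average. Within these limits, the genotype average bounds the difference of single regions. Its 95% interval lay within 1.5-fold in either direction for 11219 shared regions (99.0%) and within 2-fold for 11331. The median log2 fold change was 0.002, and the 5th and 95th percentiles of the shared regions were -0.19 and 0.19. Within a single table the intervals were wider, with 9526 regions (84.1%) inside 1.5-fold in controls and 8525 (75.2%) in stressed mice. In controls 430 shared regions had all 3 het values above all 3 wild-type values (3.79%, against 6.69% of all regions) and 800 had them all below (7.06%, against 6.99%). In stressed mice the counts were 720 above (6.35%, against 6.55%) and 563 below (4.97%, against 6.34%). The shared regions were chosen through tables that hold these libraries, so these counts describe and do not test. The thalamus markers Prkcd, Slc17a6 and Tcf7l2 summed to 8.62 to 10.2 TPM in het control and 14.8 to 65.2 TPM in wild-type control mice, with 2 of the 3 markers not overlapping. Their part in the 5hmC values was not tested.

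**Figure D3:**
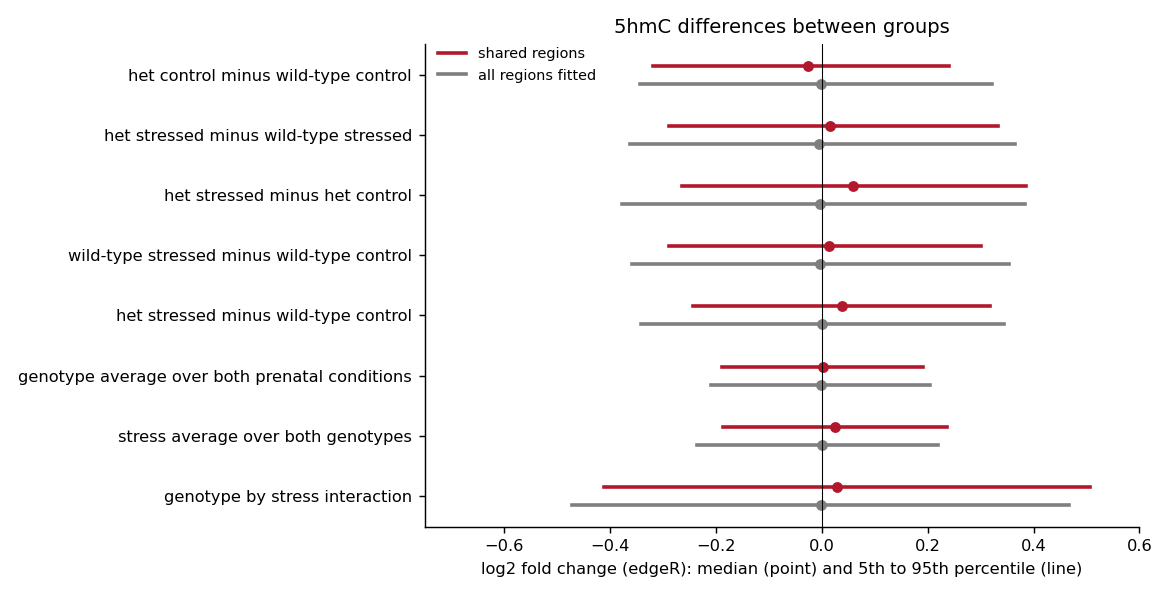
Log2 fold changes in 8 comparisons for the shared regions (red) and for all regions fitted in the same comparison (grey). Points are medians and lines run from the 5th to the 95th percentile of regions. The shared regions lie around 0 in each comparison, with medians between -0.03 and 0.06, and the genotype average has the narrowest range.

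The regions with the smallest p for the genotype average were far from the threshold. chr18:54040660-54042196 was at 51.3, 46.3 and 38.7 CPM per kb in het stressed mice, against 61.8, 77.8 and 71.6 in wild-type stressed mice, and at 47.7, 52.6 and 42.2 in het control mice, against 55.9, 56.0 and 60.4 in wild-type control mice. All het values were below all wild-type values within each condition (log2 fold change -0.44 ± 0.12 (SE), edgeR adjusted p = 0.56). chr12:112414516-112416199 was at 77.4, 80.7 and 57.1 in het stressed mice, against 62.8, 59.1 and 53.5 in wild-type stressed mice, and at 59.3, 73.0 and 75.5 in het control mice, against 58.1, 54.03 and 46.2 in wild-type control mice. Here the groups overlapped in stressed mice but not in controls (0.37 ± 0.11, adjusted p = 0.816). The other 4, chr19:56653455-56654899 and chr7:123038743-123040029 (0.39 each) and chr16:72445011-72446494 and chr1:13129500-13130876 (-0.38 and -0.34), had an adjusted p of 0.998.

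Within control mice the smallest adjusted p of a shared region was 0.598. chr12:75051917-75053900 had 24.8, 26.7 and 26.1 CPM (scaled by TMM) in het control and 34.3, 40.7 and 36.4 in wild-type control mice (log2 fold change -0.53 ± 0.14 (SE)). chr16:43032814-43034999 (-0.53) and the very dense chr6:103598595-103599649 (-0.63) were also lower in het control mice, and chr6:137065900-137067340 (0.53), chr5:104543001-104544179 (0.61) and chr4:128524000-128525070 (0.54) were higher. At chr6:103598595-103599649 the groups overlapped, and in the other 5 they did not. Its edgeR adjusted p was 0.0295 without het control replicate 1 and 0.0181 without wild-type control replicate 2. The region was called in 3 of 11 alternative fits.

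Within stressed mice the smallest adjusted p of a shared region was 0.242. That region, chr10:110724167-110725399, had the largest difference of any shared region in a single table: 23.1, 21.2 and 21.9 CPM in het stressed and 11.6, 9.40 and 11.4 in wild-type stressed mice (log2 fold change 1.04 ± 0.25 (SE)). chr12:41201337-41202867 (0.74) and chr2:59803322-59804409 (0.75) were likewise higher in all 3 het stressed mice. chr18:54040660-54042196 (-0.60), chr12:98299200-98300342 (-0.59) and chr13:59053811-59054847 (-0.69) were lower in all 3, and none of the 6 passed the test (adjusted p = 0.242 to 0.532).

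Prenatal stress likewise gave no shared region that passed the test. Here too the lack of calls is not independent of how the regions were chosen. Beyond 1.5-fold lay 0.688% of shared regions in het mice, against 1.56% of all, and 0.247% in wild-type mice, against 1.04%. In het mice (stressed against control) edgeR called 0, against 0.00621% of all 32205 regions, with 928 at an unadjusted p under 0.05 (8.19%, against 9.95%), and DESeq2 called 0, with 251. In wild-type mice edgeR called 0 (0.0% of all 33234), with 691 at an unadjusted p under 0.05 (6.1%, against 8.85%), and DESeq2 called 0, with 215. For the stress average edgeR called 0 (0.0% of all 18558 joined regions), with 696 at an unadjusted p under 0.05 (6.14%, against 7.43%), and DESeq2 called 0, with 246. The 95% interval of the stress average lay within 1.5-fold for 11097 shared regions (97.9%).

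The shared regions leaned to one side in het mice, and less strongly in other comparisons. For het control minus wild-type control 44.2% were above 0, against 49.9% of all regions. For het stressed minus wild-type control it was 59.3%, against 50.2%. The median log2 fold change of the shared regions was 0.06 for het stressed minus het control, against -0.003 for all regions of the table. Of the shared regions 62.3% were above 0, against 49.5% of all. All 3 het stressed values exceeded all 3 het control values in 1175 shared regions (10.4%, against 7.85% of all) and were below them in 424 (3.74%, against 7.5%). In wild-type mice the median was 0.01, with 711 regions wholly higher in stressed mice (6.27%, against 7.03%) and 544 wholly lower (4.8%, against 6.85%). The shared regions were chosen through tables that hold these libraries, so these values describe and do not test. The cortex markers Slc17a7, Neurod6 and Tbr1 summed to 110 to 152 TPM in het stressed mice and 11.3 to 82.2 TPM in het control mice, with 2 of 3 markers not overlapping. The thalamus markers summed to 10.4 to 16.0 TPM in het stressed and 8.62 to 10.2 TPM in het control mice, though each of the 3 overlapped by itself. The liver markers Alb, Apoa2 and Serpina1a summed to 1.49 to 2.12 TPM in het stressed and 2.80 to 3.77 TPM in het control mice. Nearly all of this was Apoa2 (1.42 to 2.09 and 2.80 to 3.66 TPM), the 1 marker of the 3 that did not overlap. Alb and Serpina1a were at or near 0. In wild-type mice the choroid plexus markers Ttr, Kl and Folr1 summed to 2.27 to 13.1 TPM in stressed and 293 to 568 TPM in control mice, with 2 of 3 not overlapping. The part of these in the 5hmC values was not tested.

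Among single regions, chr8:124136400-124137779 came nearest to the threshold. It had 31.3, 19.8 and 22.7 CPM in het stressed and 36.4, 49.8 and 44.9 CPM in het control mice, so the groups do not overlap (log2 fold change -0.78 ± 0.17 (SE), edgeR adjusted p = 0.0543). chr7:148823799-148826007 had 37.0, 24.6 and 33.7 CPM in het stressed and 56.5, 62.4 and 40.7 CPM in het control mice (-0.70 ± 0.15, adjusted p = 0.0543). chr4:118219800-118221599, the fifth densest region, had 567, 297 and 374 CPM in het stressed and 509, 916 and 765 CPM in het control mice and overlapped (-0.81 ± 0.18, adjusted p = 0.0845). With some libraries left out these 3 passed the test: without het control replicate 1 the adjusted p of edgeR was 0.00222, 0.0364 and 0.000148, and without het stressed replicate 1 it was 0.00602, 0.0273 and 0.00146. Without het control replicate 3 the first had 0.0352 and the second 0.000407. In order, the 3 regions were called in 4, 4 and 2 of 11 alternative fits. The 3 regions most nearly higher in het stressed mice were chr8:23985670-23987699 (0.54), chr12:75904500-75905999 (0.49) and chr2:84553042-84554156 (0.79), with adjusted p-values of 0.0879, 0.0879 and 0.115. Without het stressed replicate 1 the chr8 and chr12 regions each had an edgeR adjusted p of 0.0375, and without het control replicate 1 the chr12 region had 0.0116. This chr8 region was called in 1 and the chr12 region in 2 of 11 alternative fits.

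In wild-type mice, chr18:84445537-84446599 had 23.0, 21.4 and 20.04 CPM in stressed and 24.1, 40.5 and 40.8 CPM in control mice (log2 fold change -0.78 ± 0.17 (SE), edgeR adjusted p = 0.142). chr8:81115335-81116791 had 42.8, 28.4 and 22.8 CPM in stressed and 36.8, 51.3 and 57.5 CPM in control mice, and its groups overlapped (-0.73 ± 0.16, adjusted p = 0.142). In both, wild-type control replicate 1 was nearest to the stressed mice, and without it both had an edgeR adjusted p of 0.00111; without wild-type stressed replicate 1 the second had 0.00169. chr12:41201337-41202867, the region that was higher in het stressed than in wild-type stressed mice, had 15.8, 15.9 and 16.1 CPM in wild-type stressed and 25.8, 24.7 and 26.8 CPM in wild-type control mice (-0.68 ± 0.19, adjusted p = 0.302). The 2 comparisons share the wild-type stressed libraries. chr5:96733810-96734888 (0.65), chr18:80246500-80247989 (0.57) and chr5:132534467-132535474 (0.63) were higher in all 3 wild-type stressed mice, with adjusted p-values of 0.252, 0.302 and 0.302. Without wild-type control replicate 1 the first of them had an edgeR adjusted p of 0.0114. Of 11 alternative fits each, chr18:84445537-84446599 was called in 1, chr8:81115335-81116791 in 2 and chr5:96733810-96734888 in 1.

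Averaged over genotypes, chr5:96733810-96734888 and chr11:3065500-3066500 came nearest to a stress difference in either direction (adjusted p = 0.107 each). These densities were read from the tables that compare stressed with control mice of 1 genotype. The first was at 76.5, 88.6 and 86.6 CPM per kb in het stressed mice, against 69.1, 58.9 and 71.0 in het control mice, and at 102, 113 and 102 in wild-type stressed mice, against 91.6, 59.97 and 62.5 in wild-type control mice. The stressed mice were higher within each genotype with no overlap (log2 fold change 0.51 ± 0.11 (SE)). The second was at 114, 103 and 94.7 in het stressed mice, against 118, 190 and 126 in het control mice, and at 106, 116 and 97.7 in wild-type stressed mice, against 129, 152 and 158 in wild-type control mice, again with no overlap (-0.46 ± 0.10). chr18:84445537-84446599 (-0.62), chr7:121203800-121205219 (-0.47), chr18:14783100-14784475 (0.36) and chr19:37040651-37041800 (0.47) followed, with adjusted p-values of 0.212 to 0.322. Without het control replicate 1 the edgeR adjusted p was 0.0407 for chr5:96733810-96734888, 0.0226 for chr11:3065500-3066500 and 0.0131 for chr18:84445537-84446599. Without wild-type control replicate 1 it was 0.0058, 0.0225 and 0.00523 for the same regions. Each of these regions was called in 2 of 18 alternative fits.

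Het stressed mice, which differ from wild-type control mice in both factors, also showed no shared region past the threshold. edgeR called 0, against 0.00947% of all 31667 regions, with 571 at an unadjusted p under 0.05 (5.04%, against 7.15%), and DESeq2 called 0, with 110. The median log2 fold change was 0.04, with 808 regions wholly higher (7.13%, against 6.71%) and 377 wholly lower (3.33%, against 5.54%). These are descriptions with no test, since the shared regions were chosen through tables that hold these libraries. chr19:37040651-37041800 had 33.8, 30.7 and 38.8 CPM in het stressed and 22.0, 19.9 and 19.0 CPM in wild-type control mice (0.78 ± 0.17 (SE), adjusted p = 0.0847). chr10:115495850-115497567 (0.85) and chr10:115568200-115569213 (0.62), which lie near each other on chromosome 10, were also higher in all 3 het stressed mice, with adjusted p-values of 0.272 and 0.324. On the lower side were chr8:81115335-81116791 (-0.50), chr18:84445537-84446599 (-0.57) and chr11:3065500-3066500 (-0.46), each with an adjusted p of 0.448. Without wild-type control replicate 1 the edgeR adjusted p was 0.0313 for chr19:37040651-37041800 and 0.0478 for chr18:84445537-84446599. Both regions were called in 1 of 11 alternative fits. The liver markers, nearly all Apoa2, summed to 1.49 to 2.12 TPM in het stressed and 2.39 to 5.58 TPM in wild-type control mice. Of the 3 markers, 1 did not overlap, and their part was not tested.

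Whether the genotype difference depends on prenatal stress was tested as an interaction, the genotype difference in stressed mice minus that in control mice. edgeR called 0 shared regions (0.0% of all 17071 joined regions), with 890 at an unadjusted p under 0.05 (7.85%, against 8.15%), and DESeq2 called 0, with 333. This contrast is the least precise: its 95% interval lay within 1.5-fold for 3492 shared regions (30.8%) and within 2-fold for 10339 (91.2%). As for genotype and stress, the lack of calls is not independent of how the regions were chosen. The smallest adjusted p was 0.285, shared by all 6 regions named next.

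At chr10:110724167-110725399 the mark was at 52.7, 48.4 and 49.9 CPM per kb in het stressed mice, against 26.1, 22.1 and 26.4 in wild-type stressed mice, and at 20.3, 37.5 and 24.7 in het control mice, against 42.4, 41.5 and 35.0 in wild-type control mice. Het mice were higher under stress with no overlap, and without stress their mean was lower but the groups overlapped (interaction log2 1.51 ± 0.34 (SE)). Without het control replicate 2, the highest of the het controls there, its edgeR adjusted p was 0.0175. The region was called in 1 of 19 alternative fits. chr2:41852377-41853664 (1.23) and chr2:64228561-64229699 (1.12) had the same pattern, with no overlap in either condition. Among regions with the opposite pattern the smallest p was at chr11:118729610-118730801, with 81.1, 53.2 and 87.8 in het stressed mice, against 111, 100 and 102 in wild-type stressed mice, and 138, 99.5 and 113 in het control mice, against 89.1, 91.3 and 77.0 in wild-type control mice (-0.84 ± 0.21). chr6:137065900-137067340 (-0.83) and chr18:80246500-80247989 (-0.76) were the others.

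**Figure D4:**
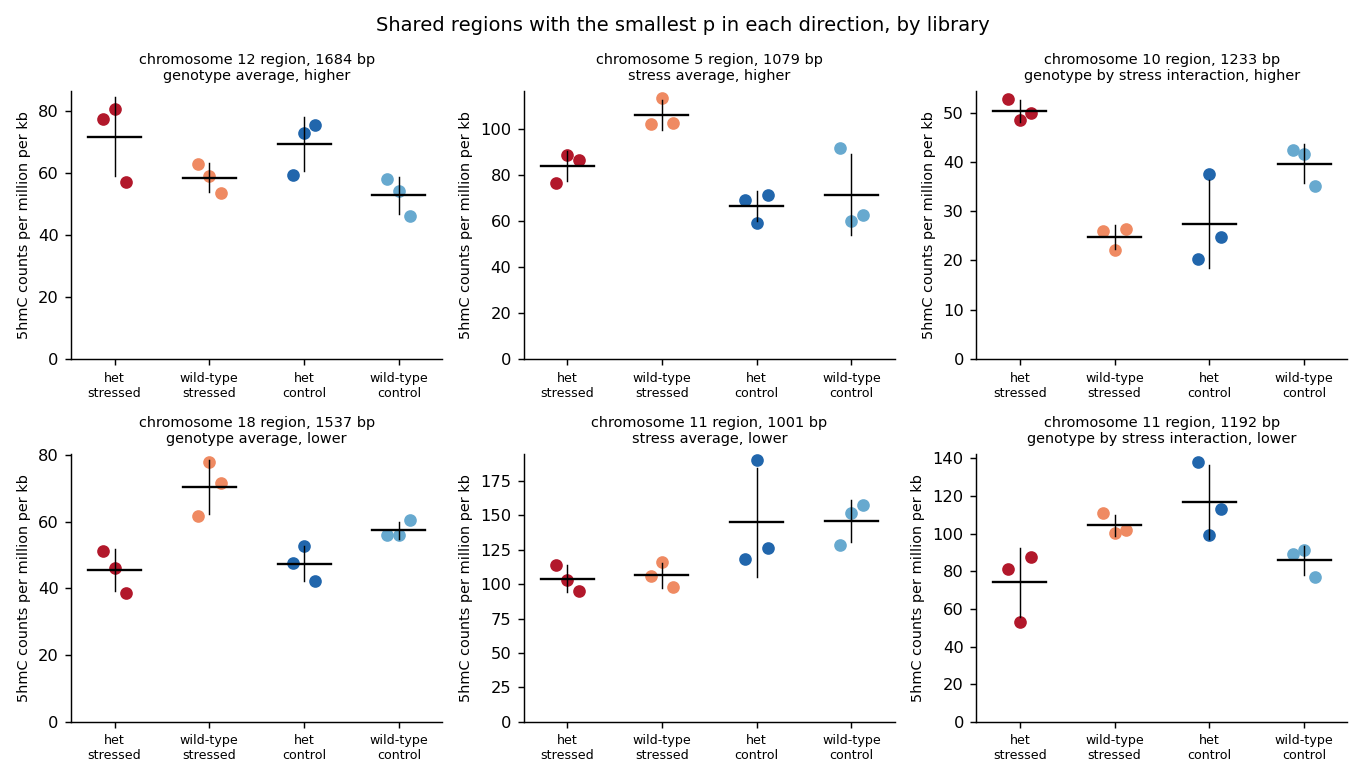
5hmC density by library, in CPM per kb, of the counts in the shared regions, for the shared regions nearest to a call, higher and lower, for the genotype average (left), the stress average (middle) and the interaction (right). Points are the 3 libraries of a group, bars the mean and thin lines the SD. None passed the test, and the chromosome 10 region shows all het above all wild-type values in stressed mice and overlap in controls.

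The genotype differences in stressed and in control mice, which share no library, did not run together over the shared regions. They had the same sign in 44.6% of regions (46.3% of all 17071 joined regions), with a Pearson r of -0.19 across regions, a description with no test since regions of a library are not replicates. Het mice were wholly higher in both conditions in 11 regions (0.0971%, against 0.164% of all joined regions) and wholly lower in both in 23 (0.203%, against 0.264%). They were wholly higher under stress and wholly lower without it in 82 (0.724%, against 0.586%), and the reverse in 30 (0.265%, against 0.422%). Opposite directions thus held in 0.988% of the shared regions and 1.01% of all. For het stressed minus het control and wild-type stressed minus wild-type control, which share no library either, the differences had the same sign in 48.6% (49.3% of all 18558 joined regions), with an r of -0.07. Stressed mice were wholly higher in both genotypes in 60 shared regions (0.529%, against 0.383% of all) and wholly lower in both in 23 (0.203%, against 0.393%). They were wholly higher in het and wholly lower in wild-type mice in 77 (0.679%, against 0.469%), and the reverse in 25 (0.221%, against 0.329%), so opposite directions held in 0.900% of the shared regions and 0.797% of all.

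The median differences varied with the mean density of the regions. The shared regions were split into 5 classes of equal size by their mean density over the same 12 libraries, so these values describe and do not test. For het control minus wild-type control the median log2 fold change went up steadily over the classes, with -0.09 in the least dense and 0.03 in the densest. For het stressed minus wild-type stressed it went down, with 0.07 and -0.03, and for het stressed minus het control with 0.13 and -0.007. The genotype average stayed between -0.0002 and 0.004 in every class. Within a class the r between the genotype differences in stressed and control mice was -0.18 to -0.13. Between the stress differences in het and wild-type mice it was -0.12 in the least dense class and 0.03 in the densest.

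**Figure D5:**
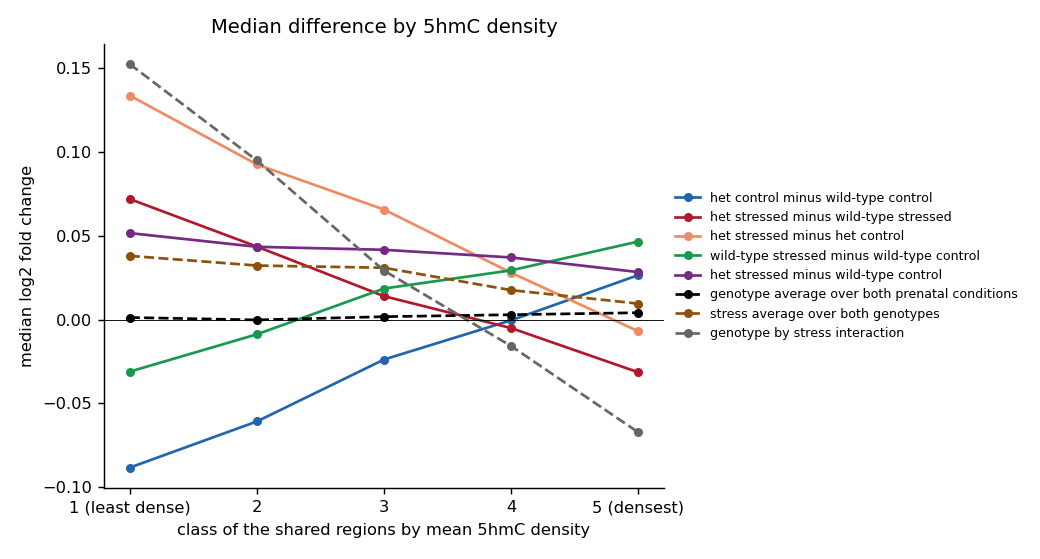
Median log2 fold change of the shared regions in 8 comparisons, by class of mean 5hmC density over the 12 libraries (each class holds 2266 or 2267 regions). The genotype lines for control and stressed mice slope in opposite directions and cross near 0, while the genotype average is flat.

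The likeness of libraries over the shared regions did not follow the groups. The r of log2 density across regions was 0.568 to 0.766 within groups (12 pairs) and 0.559 to 0.808 between groups of a table (18 pairs). It was 0.513 to 0.709 between libraries of different tables and groups (36 pairs), whose regions differ in bounds. The libraries with the lowest median r, wild-type control replicate 1 (0.552) and het stressed replicate 2 (0.559), had 593145 and 424129 counts in the shared regions, among totals of 424129 to 1230948.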

How the data were processed

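5hmC-enriched DNA of 12 mice was sequenced, with 3 libraries in each of 4 groups, and RNA of the same mice was used for marker checks. The authors deposited whole-number read counts per region in 5 tables, each with its own regions and 6 libraries; reads were aligned to mm9 with Bowtie 0.12.7, per the submitters' processing notes. The sources used here do not say how regions were called. RNA values were deposited as TPM made with RSEM and Bowtie, per the submitters' processing notes. The members and lists were chosen with earlier results of these data known. Regions were joined by largest overlap. Each table was fitted whole with edgeR 4.0.16 (R 4.3.3; quasi-likelihood test, TMM scaling, robust, two-sided, Benjamini-Hochberg adjustment over all regions, called at 0.05). The joined fits had 4 group means and an offset for region width: genotype average and interaction from the 2 genotype tables, and stress average from the 2 stress tables. Named regions were the 3 of lowest p among the higher and among the lower regions of each comparison, plus the 5 densest, the 5 least dense, the 3 most and 3 least variable, and those next to the limits of the rule. DESeq2 1.42.0, other scaling, a low-count filter, other overlap and width rules, a replicate block and leaving out each library were tried. Scripts were tested on simulated data. Tables were handled with Python 3.11.15, pandas 2.3.3 and scipy 1.17.1. Totals of 1033060 to 4331517 counts per library and median counts of 34.0 to 99.0 per shared region limit precision. Pairs of replicates differed by more than counting error (chi-square per region 1.08 to 1.67). Each mouse was taken as 1 sample. Whether the mice come from separate litters is unknown, so p-values reflect only how these mice vary. Gene annotation and sequence of mm9 were not used here, so regions are given by position alone.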

Additional observations from a re-analysis of the deposited data

Results flagged for a closer look

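In 112 shared regions the 3 het and 3 wild-type values did not overlap in either prenatal condition and lay in opposite directions in stressed and in control mice. That is 0.988% of the shared regions, against 1.01% of all 17071 joined regions. The difference itself was tested as the interaction, and edgeR's quasi-likelihood test called 0 shared regions at an adjusted p under 0.05, with 890 at an unadjusted p under 0.05; DESeq2 also called 0. In 102 shared regions the stressed and control values did not overlap in either genotype and lay in opposite directions in het and in wild-type mice (0.900%, against 0.797% of all 18558 joined regions). That is the same interaction, and it likewise had 0 calls.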

How the results depend on the processing

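Over 126 alternative fits of the 8 comparisons, 110 called 0 shared regions and 16 called between 1 and 13. With the replicate number as a block, 6 shared regions were called for het control minus wild-type control (0.0529%, against 0.084% of all regions) and 4 for het stressed minus het control (0.0353%, against 0.0528%); the block changed no other count. Among the named regions, the block gave an edgeR adjusted p of 3.19e-16 at chr6:103598595-103599649 in the first comparison, and of 0.0244 at both chr8:124136400-124137779 and chr7:148823799-148826007 in the second. Whether the numbers pair the mice is unknown, and the main fits took the libraries as unpaired. In their deviations from the group means, same-numbered libraries correlated at 0.0251 to 0.181 in the first comparison and -0.0648 to -0.0365 in the second. Libraries of other numbers averaged -0.079 to -0.0135 in the first and 0.0206 to 0.0298 in the second. Leaving out 1 library gave 0 to 3 calls for het control minus wild-type control: 3 when wild-type control replicate 2 was left out (7 of all regions) and 1 each for het control replicates 1 and 2 (3 and 2 of all). It gave 0 to 13 for het stressed minus het control: 13 without het control replicate 1 (0.115%, against 0.186% of all), 12 without het stressed replicate 1 (0.106%, against 0.13%) and 4 without het control replicate 3 (0.0353%, against 0.09%). It gave 0 to 3 for wild-type stressed minus wild-type control: 3 without wild-type control replicate 1 (7 of all regions) and 1 without wild-type stressed replicate 1 (2 of all). It gave 0 to 6 for het stressed minus wild-type control: 6 without wild-type control replicate 1 (0.0529%, against 0.0568% of all) and 1 without het stressed replicate 1 (2 of all regions). It gave 0 to 6 for the stress average: 6 without wild-type control replicate 1 (0.0529%, against 0.0647% of all) and 5 when het control replicate 1 was left out (0.0441%, against 0.0539%). It gave 0 to 2 for the interaction: 2 without wild-type control replicate 2 (2 of all regions) and 1 when het control replicate 2 was left out (1 of all). It gave 0 in each case for het stressed minus wild-type stressed and the genotype average. The cause was not tested. All 660 alternative values of the named regions kept their sign, and 29 passed the threshold. These regions were picked for their small p in the same libraries, so a kept sign is no independent support. The density difference between shared and other regions, a description with no test, was 0.638 to 0.944 with 1 library left out. Leaving out libraries for the shares of counts was chosen after seeing the data. The exact permutation test of the 45 alternatives could not go below p = 0.1, so none could pass and their agreement decides nothing. At 34.0 to 99.0 counts per region, small differences in single regions were not detectable at this depth.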

Other observations

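The order in which each deposited table lists its regions within a chromosome ran closely with the p-values of the edgeR fits made here. Spearman's rho across regions was 0.975 to 0.984 in the 5 tables (24982 to 38107 regions, which share the same 6 libraries within a table). The shared regions stood at a mean position of 51.8 to 53.95% of the way down each chromosome's list.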
